A study of Mus musculus with 20 samples.

Results

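The core cardiac transcription factors Nkx2-5, Gata4, Gata5, Gata6, Tbx5, Tbx20, Mef2c, Mef2a, Hand1 and Hand2 were followed through 20 RNA-seq libraries of embryonic mouse heart in which the floxed histone methyltransferase gene Kmt2d was deleted with 3 Cre lines. The 10 genes were chosen by symbol from the 33495 genes of the deposited table, and each was listed once. Mesp1Cre is active in cardiac mesoderm, Mef2cAHF::Cre in precursors of the anterior heart field and Tnnt2::Cre in cardiomyocytes. Mutants were Cre; Kmt2d fl/fl; mTmG/+ and controls, called WT in the labels, were Cre; Kmt2d fl/+; mTmG/+. Every control thus also carried Cre, the mTmG reporter and 1 floxed allele open to deletion, and all mice were C57BL/6. The Mesp1Cre libraries were made from whole hearts at E9.0 (4 mutants and 4 controls), the Mef2cAHF::Cre libraries from right ventricle and outflow tract at E11.5 (3 and 3) and the Tnnt2::Cre libraries from whole hearts at E11.5 (3 and 3). For Mesp1Cre a protocol text shared by all samples gives E11.5, and the stage here follows the age label. The dissected tissue also holds cells in which a given Cre is not active.

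These factors form the regulatory core of the heart. NKX2-5 is a homeodomain factor, GATA4, GATA5 and GATA6 are zinc finger factors, TBX5 and TBX20 belong to the T-box family, MEF2A and MEF2C are MADS-box factors, and HAND1 and HAND2 are basic helix-loop-helix factors. They bind the regulatory DNA of one another and of genes for contractile and ion handling proteins, often together. Tbx5 is known for its place in the atria and left ventricle, Hand1 for the left ventricle and outer curvature, and Hand2 for the right ventricle and second heart field.

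The 250 bases before the annotated start are shown for Tbx5, Hand1 and Gata5, the 3 factors that were lower both in E11.5 than in E9.0 whole hearts and in right ventricle and outflow tract than in whole heart with the controls named by the sample titles. Under the column names, the other reading of the labels, Tbx5 and Hand1 were lower in that tissue and Gata5 was not called. Capitals mark matches on either strand to AAGTG, the core bound by NKX2-5, and to the E-box CANNTG, which helix-loop-helix factors such as the HAND proteins bind. Each window reads 5′ to 3′ on the strand of its gene, in mm9, and lies at chr5:120284422-120284671 for Tbx5, chr11:57646321-57646570 for Hand1 and chr2:180069405-180069654 for Gata5.
Tbx5: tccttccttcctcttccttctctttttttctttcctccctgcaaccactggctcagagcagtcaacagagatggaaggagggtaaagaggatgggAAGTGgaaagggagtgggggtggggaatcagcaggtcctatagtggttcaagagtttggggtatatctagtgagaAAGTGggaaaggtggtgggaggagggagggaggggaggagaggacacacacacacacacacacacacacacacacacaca
Hand1: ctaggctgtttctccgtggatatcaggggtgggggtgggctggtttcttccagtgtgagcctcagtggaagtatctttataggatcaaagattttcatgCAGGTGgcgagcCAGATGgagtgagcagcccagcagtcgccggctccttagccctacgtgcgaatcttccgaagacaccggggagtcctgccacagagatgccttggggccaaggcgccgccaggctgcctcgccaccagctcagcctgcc
Gata5: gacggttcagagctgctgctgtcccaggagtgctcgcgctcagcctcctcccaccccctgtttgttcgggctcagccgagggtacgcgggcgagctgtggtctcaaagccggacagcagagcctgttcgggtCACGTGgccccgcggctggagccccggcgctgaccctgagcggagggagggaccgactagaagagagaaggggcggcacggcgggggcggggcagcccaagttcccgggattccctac
The Tbx5 window held AAGTG at positions -155 and -80 from the start, the Hand1 window an E-box at -151 and -139, and the Gata5 window an E-box at -118. Their GC content was 52.0%, 60.0% and 69.6%. Of the windows of all 10 factors, 4 held AAGTG, against 40% of 22375 annotated windows of the same length. An E-box stood in 5 of the 10, against 63.5% of all windows. GATAA, the core of GATA sites, stood in 2 (Gata4 and Hand2), against 21.5%. The T-box core AGGTGT was in none, against 11.3%, and the core of MEF2 sites, CTA and TAG set 4 bases apart, was in none, against 3.15%. Both strands were searched, matches of different motifs could overlap, and a match is only a match of letters.

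In mm9, Nkx2-5 (ENSMUSG00000015579) lies on the minus strand at chr17:26975610-26978510, Gata4 (ENSMUSG00000021944) on the minus strand at chr14:63817759-63890529, and Gata5 (ENSMUSG00000015627) on the minus strand at chr2:180059838-180069404. Gata6 (ENSMUSG00000005836) lies on the plus strand of chromosome 18 from 11052508 to 11085633, Tbx5 (ENSMUSG00000018263) on the plus strand at chr5:120284672-120334479, and Tbx20 (ENSMUSG00000031965) on the minus strand at chr9:24527648-24578746. Mef2c (ENSMUSG00000005583) lies on the plus strand at chr13:83643194-83802927, Mef2a (ENSMUSG00000030557) on the minus strand at chr7:74376049-74517744, Hand1 (ENSMUSG00000037335) on the minus strand at chr11:57642209-57646320, and Hand2 (ENSMUSG00000038193) on the plus strand at chr8:59799780-59803314. Gata5 shares 258 of its 3277 exon bases with the antisense gene Gm14318, and Gata6 shares 58 of 3194 with the antisense gene 1010001N08Rik. The deposited gene lengths, 3019 bases for Gata5 and 3136 for Gata6, equal the exon bases without those shared. Other deposited lengths were well below the exon bases, at 2649 against 7396 for Mef2c, 3193 against 3941 for Tbx5 and 4047 against 4495 for Tbx20. Values per gene length below, and shares drawn from them, rest on the deposited lengths. Whether reads were counted by strand is not given in the sources used here. Of the stretches of 50 bases in each gene's transcripts, 4.98% occurred in another gene for Gata5, 0.334% for Tbx5 and none for the other factors.

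The libraries held between 21727258 and 45341870 counts, with the lowest totals among the Mesp1Cre mutants and the highest among the Tnnt2::Cre libraries. For Mef2cAHF::Cre the column names in the table give each library the opposite genotype to its title, so these libraries are called labelled mutant and labelled control after the titles. Kmt2d, listed under its older symbol Mll2, went against those titles. Its normalized level, in CPM (counts relative to the library total, scaled by edgeR's TMM method over all 20 libraries), was 183, 184 and 193 in the labelled mutants and 141, 153 and 154 in the labelled controls (Mll2 log2 fold change 0.32, SE 0.06, adjusted p = 0.0359). Leaving out any 1 of these libraries but labelled control 2 ended that call, with values from 0.28 to 0.34. The level was lower in every mutant than in every control of Mesp1Cre (125 to 141 against 148 to 160; -0.21, SE 0.07, adjusted p = 0.0764) and of Tnnt2::Cre (114 to 122 against 125 to 166; -0.35, SE 0.12, adjusted p = 0.327), without passing the test. A gene-level count also takes reads from exons that Cre leaves in place. Under the column names every Mef2cAHF::Cre sign given here is the opposite, and the values by the column names stand beside the results that turn on them.

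Y-linked genes, at 10 CPM or more, marked 4 of 4 Mesp1Cre mutants but 2 of 4 controls as male, 0 of 3 labelled mutants and 1 of 3 labelled controls for Mef2cAHF::Cre, and 1 of 3 mutants and 2 of 3 controls for Tnnt2::Cre. The summed level of 14 cardiomyocyte markers ran from 28843 to 67675 CPM over the libraries, against 2.86 to 16.8 CPM for 10 genes of foregut and yolk sac endoderm. These lists bear on heart tissue and not on which part of the heart was taken. The summed level of 14 erythroid genes varied most, from 5457 to 17935 CPM in the Mesp1Cre controls against 1939 to 7638 in the mutants, from 104040 to 161428 against 19764 to 134259 for Tnnt2::Cre, and from 7399 to 32505 in the labelled controls against 25785 to 48041 in the labelled mutants.

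Per gene length, Tbx20, a T-box repressor and activator of the chamber program, was the most highly expressed core factor in all 6 groups. In the Mesp1Cre controls it stood at 118 ± 21.0 FPKM (fragments relative to gene length and library total, the deposited unit; mean ± SD, n = 4), with its range above that of Gata4 at 58.0 ± 8.98 FPKM. Hand1 (47.1 FPKM), Mef2c (46.2), Tbx5 (43.6) and Gata5 (37.6) followed with ranges that overlapped from one to the next, then Mef2a (32.2), Gata6 (29.4), Nkx2-5 (20.3) and Hand2 at 14.4 ± 1.82 FPKM. The place of Nkx2-5 was set by control 2 at 48.1 FPKM. Without it the mean was 11.1 ± 2.51 FPKM (n = 3), below Hand2, and the ranges of the 2 genes overlapped with or without it. In the Tnnt2::Cre controls the order began with Tbx20 at 70.4 ± 8.09 FPKM (n = 3), Gata4 at 33.7, Gata6 at 30.9 and Mef2a at 29.0, none of whose ranges overlapped the next. Hand1, Tbx5, Mef2c and Gata5 lay together between 15.9 and 18.3 FPKM, and Nkx2-5 was the lowest at 7.95 ± 1.45 FPKM. In the labelled controls of right ventricle and outflow tract, Tbx20 stood at 98.4 ± 11.3 FPKM (n = 3), Gata4 at 46.7 and Gata6 at 43.6, while Tbx5 at 6.56 ± 2.35 FPKM and Nkx2-5 at 4.73 ± 0.296 FPKM closed the order with overlapping ranges. In the labelled mutants, the controls by the column names, the order was the same at both ends, with Tbx20 at 111, Gata4 at 41.6, Gata6 at 37.2, Tbx5 at 8.19 and Nkx2-5 at 4.48 FPKM.

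**Figure D1:**
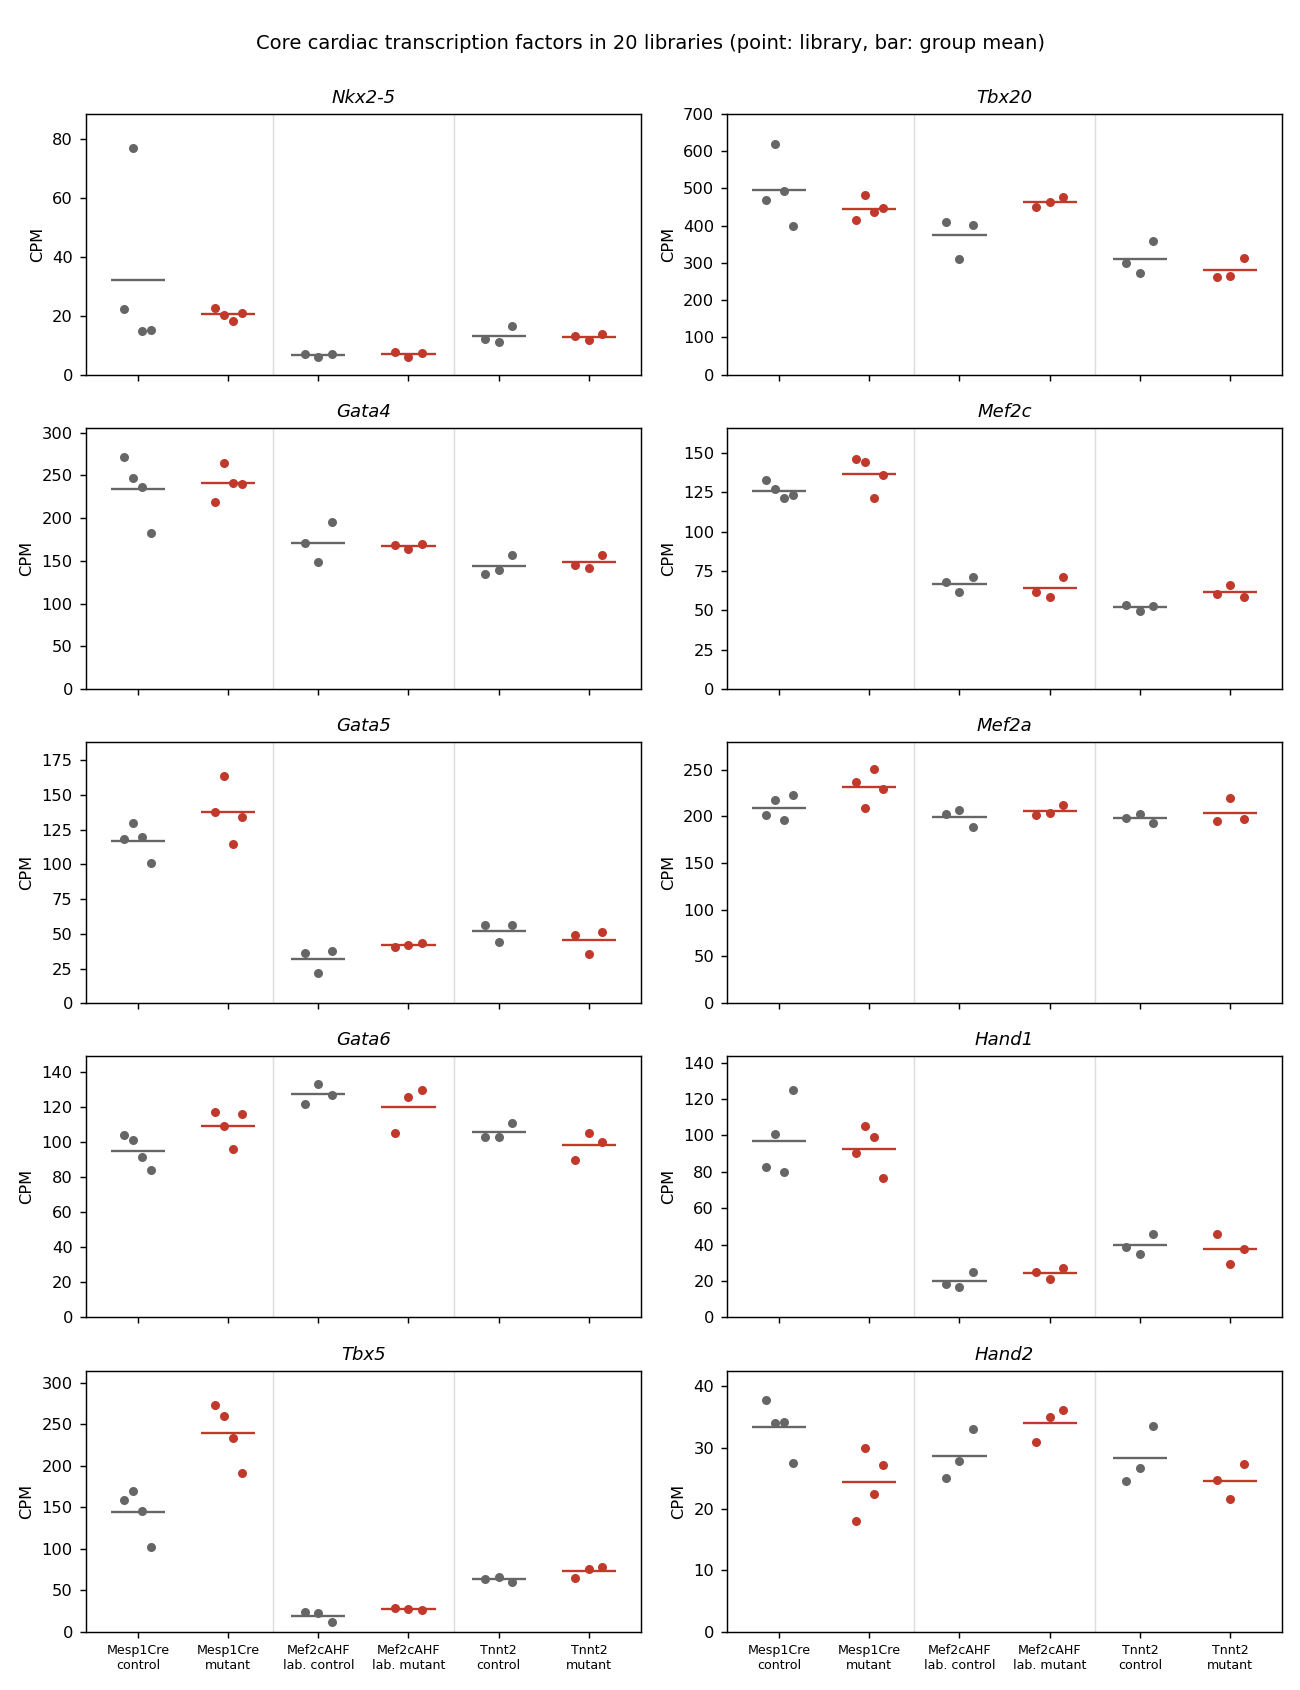
Normalized level (CPM, linear axis from 0) of each of the 10 core factors in each of the 20 libraries, with control groups in grey and mutant groups in red. Points are libraries and bars are group means. The Mesp1Cre mutants sit above all Mesp1Cre controls for Tbx5, and 1 control at 77.1 CPM stands apart for Nkx2-5.

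The first comparison asked whether deletion of Kmt2d in cardiac mesoderm changed the core factors at E9.0. Tbx5 was higher in the Mesp1Cre mutants and was the only factor to pass edgeR's quasi-likelihood test at an adjusted p below 0.05. That is 1 of 10 factors called higher, against 6.17% of the 15883 genes tested, and 0 of 10 called lower, against 5.29%, so the shares called were near the background. Over all genes the count called, 1821, was 1133 without control 1, 1190 without control 4 and 1052 without mutant 1. Tbx5 stood at 159, 169, 146 and 102 CPM in controls 1 to 4 and at 273, 260, 234 and 191 CPM in mutants 1 to 4. The lowest mutant lay above the highest control, and Tbx5 was the only core factor whose groups did not overlap (1 of 10, against 17.7% of all genes). Tbx5 was 1.67-fold higher (95% interval 1.34 to 2.08; log2 fold change 0.74, SE 0.15, adjusted p = 0.00715). The call held when each library was left out in turn, with log2 fold changes from 0.60 to 0.84.

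The Mesp1Cre mutants and controls also differed in markers of blood and in the balance of sexes. Of the 14 erythroid genes 6 were called lower in the mutants and 0 higher, against 5.29% and 6.17% of all genes, and 2 had a positive log2 fold change, with a median log2 fold change of -1.248 against -0.002 for all genes. Beside the Tbx5 levels above, the summed erythroid level was 11244, 5457, 13184 and 17935 CPM in controls 1 to 4. In mutants 1 to 4 it was 1939, 7638, 3448 and 4491 CPM. The highest, in control 4, was 1.79% of the scaled library total. With the erythroid level as a covariate the Tbx5 difference was 0.57 on the log2 scale and no longer passed (adjusted p = 0.0995). With sex as a covariate it was 0.88 (adjusted p = 0.0218), and among male libraries alone, 4 mutants and 2 controls, it was also 0.88 (adjusted p = 0.0326). In whole tissue, more cells that express Tbx5 and more Tbx5 RNA per cell cannot be told apart. The summed level of 14 cardiomyocyte genes was 44448 to 57242 CPM in controls and 55842 to 67675 in mutants, of which Ttn alone held 17833 to 24596 and 26908 to 36243 CPM. The other 13 summed to 24867 to 33522 CPM in controls and 27658 to 32514 in mutants, and of the 14 genes 2 were called higher and 3 lower, with a median log2 fold change of -0.028. The summed level of 10 endothelial and endocardial genes was 611 to 725 CPM in controls and 781 to 934 in mutants. The part of these cells in the Tbx5 result was not tested.

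**Figure D2:**
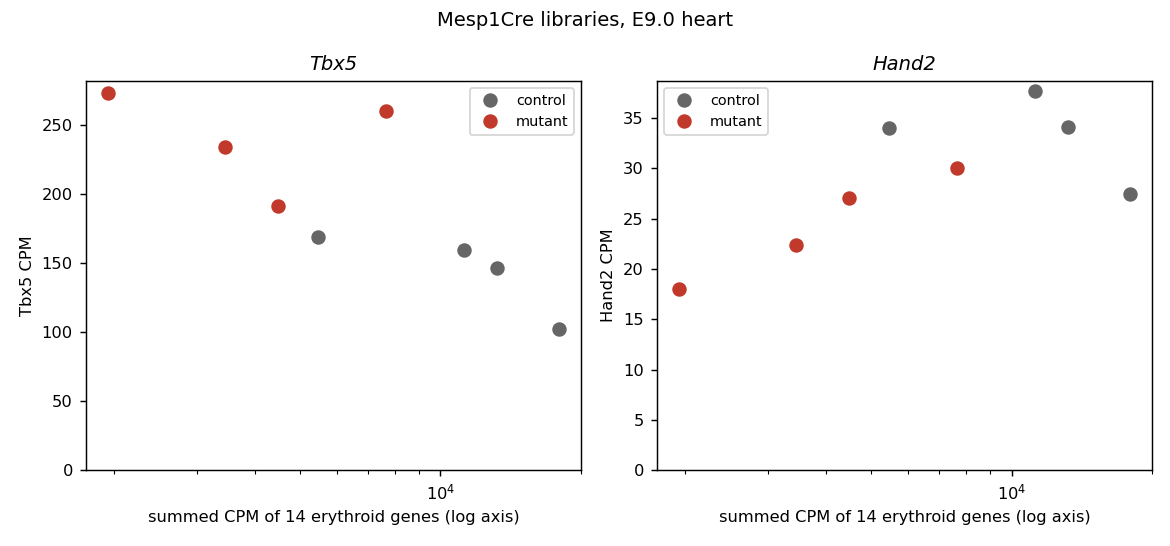
Normalized level of Tbx5 (left) and Hand2 (right) in CPM against the summed CPM of 14 erythroid genes (log axis) in the 8 Mesp1Cre libraries, controls in grey and mutants in red. Erythroid level spans 1939 to 17935 CPM. The mutant at 7638 CPM lies within the erythroid range of the controls, and the other mutants lie below that range. With the erythroid level as a covariate in edgeR the Tbx5 difference was 0.57 on the log2 scale and did not pass (adjusted p = 0.0995).

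Hand2, which is needed for the right ventricle, was the other factor with a difference near the threshold. It stood at 37.7, 34.0, 34.1 and 27.5 CPM in the controls and 18.0, 30.0, 22.4 and 27.1 CPM in the mutants. The groups overlapped only through mutant 2 at 30.0 and control 4 at 27.5 CPM. The log2 fold change was -0.45 (SE 0.16, adjusted p = 0.0863), and 3 of 10 factors (Tbx5, Hand2 and Gata5) had an unadjusted p below 0.05, against 26.9% of all genes. DESeq2 called Tbx5 and Hand2, 2 of 10 factors against 11% of its genes. With the erythroid level as a covariate the Hand2 difference was -0.30 (adjusted p = 0.489).

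The GATA factors differed little in the Mesp1Cre line. Gata5, which is abundant in endocardial and early myocardial cells, stood at 118, 130, 120 and 101 CPM in the controls and 138, 164, 115 and 134 CPM in the mutants, with a log2 fold change of 0.24 (SE 0.11, adjusted p = 0.184). Gata6 had a log2 fold change of 0.20 (adjusted p = 0.191) and Gata4 of 0.04 (adjusted p = 0.835). All 3 had overlapping groups. Mef2a (0.15), Mef2c (0.12), Hand1 (-0.06) and Tbx20 (-0.15) did not pass either, and their 95% intervals reached from -0.39 to 0.31 on the log2 scale at most.

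Nkx2-5, an early marker of the cardiac lineage, was set apart by a single library. It stood at 22.2, 77.1, 14.8 and 15.1 CPM in controls 1 to 4 and at 22.6, 20.3, 18.3 and 20.8 CPM in mutants 1 to 4. The mutants lay between 18.3 and 22.6 CPM, close to controls 1, 3 and 4, while control 2 was 3.48 times the next highest control. This rested on 1880 counts in control 2, against 375 counts in the lowest control. Among 12425 genes with a mean log2 CPM of at least 1, the ratio was the 4th largest in that library, and 5 genes there were at least 3 times every other control, compared with 7, 18 and 4 such genes in controls 1, 3 and 4. Genes beside Nkx2-5 did not share it. Bnip1 stood at 16.5 CPM in control 2 and 12.9 to 16.1 in the others, Ergic1 at 51.4 against 47.4 to 48.2, and Cuta at 47.6 against 48.7 to 57.9. No other core factor stood out there to a like degree, the next being Tbx20 at 619 CPM against 398 to 492.

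With all 8 libraries the log2 fold change of Nkx2-5 was -0.65 (SE 0.43, 95% interval -1.58 to 0.27, adjusted p = 0.36). Without control 2 it was 0.24 (adjusted p = 0.424), so the sign of the Nkx2-5 difference was set by that library. Among male libraries alone, which leave out control 2, it was 0.14 (adjusted p = 0.729).

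**Figure D3:**
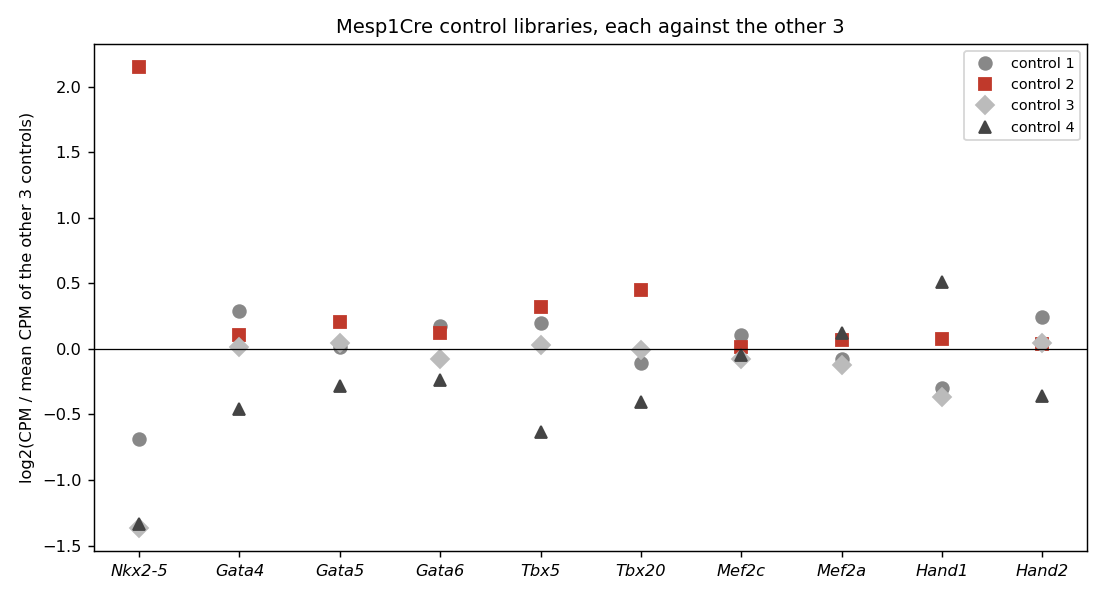
Each Mesp1Cre control library against the mean of the other 3 controls for the 10 core factors, as a log2 ratio of CPM. Control 2 (red squares) stands apart for Nkx2-5 (77.1 CPM against 14.8 to 22.2), and control 4 (dark triangles) is the lowest for Tbx5 at 102 CPM.

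The next comparison asked the same of right ventricle and outflow tract after deletion in the anterior heart field. No core factor passed edgeR's test in the Mef2cAHF::Cre libraries (0 of 10, against 2.85% of 16920 genes), under either reading of the labels. The 482 genes called over all became 78, 75 and 148 without labelled mutant 1, 2 or 3, with 0 core factors called each time. At an unadjusted p below 0.05 stood 1 of 10, Tbx20, against 17.9% of all genes. DESeq2 called 0 (3.66% of its genes) and limma on FPKM called 0 (1.18%). Gata5, Tbx5 and Tbx20 did not overlap between the groups (3 of 10, against 23.6% of all genes), and each had its higher values in the labelled mutants.

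Tbx20 stood at 449, 464 and 476 CPM in the labelled mutants and 409, 310 and 402 CPM in the labelled controls (log2 fold change 0.30, SE 0.11, adjusted p = 0.18). Tbx5 stood at 28.1, 27.0 and 25.8 CPM in the labelled mutants and 23.9, 22.1 and 12.1 CPM in the labelled controls (0.47, SE 0.21, adjusted p = 0.289). Gata5 stood at 40.5, 41.7 and 43.4 CPM against 36.3, 22.1 and 37.8 CPM (0.38, SE 0.17, adjusted p = 0.298). In each case 1 labelled control lay well below the other two. Without it the difference shrank to 0.18 for Tbx20 (labelled control 2), 0.22 for Tbx5 (labelled control 3) and 0.17 for Gata5 (labelled control 2). Hand1 (0.29) and Hand2 (0.24) were not called, and Nkx2-5 (0.05), Mef2a (0.03), Gata4 (-0.04), Mef2c (-0.08) and Gata6 (-0.09) stayed within 0.1 of 0 on the log2 scale. By the column names Tbx5, Gata5 and Tbx20 would be lower in mutants, at -0.47, -0.38 and -0.30.

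In E11.5 whole hearts after deletion in cardiomyocytes, edgeR again called 0 of 10 core factors (0.293% of 17045 genes). The 50 genes called over all became 896 without mutant 1, 17 without mutant 3, and 14, 17 and 4 without control 1, 2 or 3, with 0 core factors called each time. Only Mef2c had an unadjusted p below 0.05 (1 of 10, against 11.9% of all genes), DESeq2 called 0 (1.39%) and limma on FPKM called 0 (0.141%). Mef2c, a driver of second heart field and myocardial genes, stood at 60.5, 66.1 and 58.7 CPM in Tnnt2::Cre mutants and 53.4, 49.7 and 52.9 CPM in controls. It was the only factor without overlap (1 of 10, against 17.3% of all genes), with a log2 fold change of 0.23 (SE 0.09, adjusted p = 0.364). Tbx5 stood at 64.9, 75.5 and 77.5 CPM in mutants and 63.1, 66.1 and 60.0 CPM in controls (0.19, SE 0.10, adjusted p = 0.509). The other log2 fold changes were -0.22 for Gata5, -0.21 for Hand2, -0.16 for Tbx20, -0.11 for Gata6, -0.10 for Hand1, -0.05 for Nkx2-5 and 0.03 for Gata4 and Mef2a, none called. Nkx2-5 here spanned 11.2 to 16.5 CPM in controls and 11.8 to 13.7 CPM in mutants, with no library apart.

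**Figure D4:**
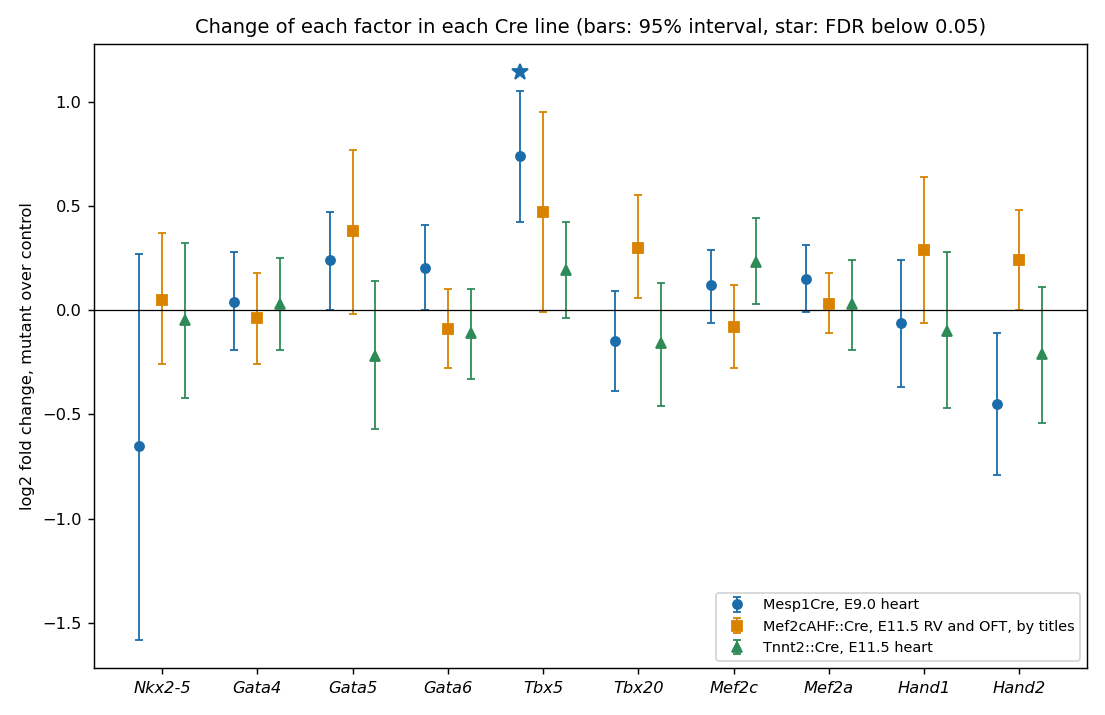
Log2 fold change of each core factor, mutant over control, in Mesp1Cre (circles), Mef2cAHF::Cre by the sample titles (squares) and Tnnt2::Cre (triangles), with 95% intervals. The star marks the single call, Tbx5 in Mesp1Cre at 0.74. By the column names the squares would change sign, with Tbx5 at -0.47.

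Whether the change of a factor differed between Cre lines was tested in 1 fit of all 6 groups. Between Mesp1Cre and Tnnt2::Cre edgeR called 0 of 10 factors (3.04% of 18391 genes), with 2 at an unadjusted p below 0.05 (19.2%) and 0 by DESeq2 (4.13%). The 2 were Tbx5, whose log2 change was higher by 0.53 (SE 0.25, adjusted p = 0.258) in Mesp1Cre, and Gata6, higher by 0.30 (SE 0.13, adjusted p = 0.205). Over all genes the count called, 559, ran from 167 without Tnnt2::Cre control 2 to 1037 without Mesp1Cre mutant 2. The Tbx5 call in Mesp1Cre alone is therefore not shown to be particular to that line.

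Between Mesp1Cre and Mef2cAHF::Cre the answer changed with the labels. By the titles the 1 factor called was Hand2, whose log2 change was lower by 0.71 in Mesp1Cre (difference -0.71, SE 0.22, adjusted p = 0.044; 11.3% of all genes called). Leaving out single libraries ended that call in 10 of 14 cases, with values from -0.82 to -0.59. By the column names the 1 factor called was Tbx5, whose change was higher by 1.19 in Mesp1Cre (SE 0.26, adjusted p = 0.0298; 1.63% of all genes called). That call was lost in 5 of 14 cases, without Mesp1Cre mutant 1, any labelled mutant or labelled control 3, with values from 0.96 to 1.37. Between Mef2cAHF::Cre and Tnnt2::Cre edgeR called 0 of 10 by the titles (3.19% of all genes; 3 at an unadjusted p below 0.05, against 15.3%; 0 by DESeq2, against 3.43%). By the column names it also called 0 (0% of all genes; 1 at an unadjusted p below 0.05, against 2.57%). Over all genes the count called between Mesp1Cre and Mef2cAHF::Cre was 2076 by the titles (1225 without labelled control 2 to 2471 without Mesp1Cre mutant 2) and 299 by the column names (39 without labelled control 3 to 637 without Mesp1Cre mutant 2). That between Mef2cAHF::Cre and Tnnt2::Cre was 586 by the titles (295 without labelled mutant 2 to 1031 without Tnnt2::Cre mutant 1). Lines differ in stage or tissue, which cannot be told apart from the Cre.

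More core factors passed the test between groups of control hearts than between genotypes, but so did more of all genes. Stage called 39.6% of all genes, and tissue 29.4% by the titles or 21.4% by the column names. Between genotypes the shares were 0.293% for Tnnt2::Cre, 2.85% for Mef2cAHF::Cre, and 6.17% higher with 5.29% lower for Mesp1Cre. The control contrasts also came from the fit of all 6 groups, whereas each genotype test used its own line alone. In whole hearts, 7 of 10 factors were lower at E11.5 (Tnnt2::Cre controls) than at E9.0 (Mesp1Cre controls), against 17.9% of genes called lower and 39.6% called in either direction, and none was higher. Mef2c fell from 121 to 133 CPM in the E9.0 controls to 49.7 to 53.4 CPM at E11.5 (log2 difference -1.28, SE 0.09, adjusted p = 2.47e-09). Hand1 stood at 79.9 to 125 CPM and then at 35.1 to 45.9 CPM (-1.29, SE 0.18, adjusted p = 1.34e-05). No library of one stage lay inside the range of the other for these genes, nor for Tbx5, Gata5, Gata4 or Tbx20. The share of all genes without overlap between the stages was not counted.

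Tbx5 stood at 102 to 169 CPM at E9.0 and 60.0 to 66.1 CPM at E11.5 (-1.19, SE 0.19, adjusted p = 4.34e-05), and Gata5 at 101 to 130 and 44.0 to 56.4 CPM (-1.17, SE 0.17, adjusted p = 1.69e-05). Gata4 was lower by 0.71 (difference -0.71, SE 0.11, adjusted p = 5.33e-05) and Tbx20 by 0.67 (-0.67, SE 0.13, adjusted p = 0.000358). The Nkx2-5 difference of -1.29 (SE 0.40, adjusted p = 0.0137) rested on Mesp1Cre control 2, and without it was -0.40 (adjusted p = 0.0778). It also missed the threshold without Tnnt2::Cre control 1 (-1.22) or 2 (-1.18).

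Gata6 (0.14, SE 0.09), Mef2a (-0.08, SE 0.07) and Hand2 (-0.24, SE 0.16) did not pass. Stage cannot be told apart from Cre line. Beside these differences the erythroid level was 5457 to 17935 CPM at E9.0 and 104040 to 161428 at E11.5, and the summed level of 8 epicardial genes was 26.7 to 82.9 against 237 to 276 CPM. Their part in the stage differences was not tested.

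**Figure D5:**
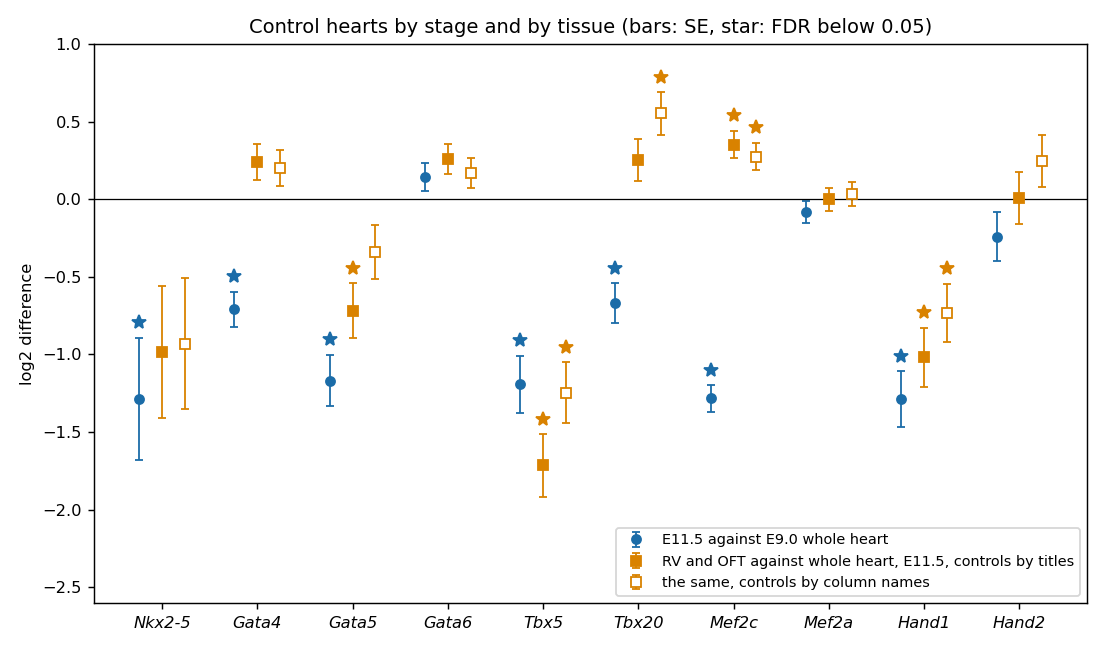
Log2 differences of the 10 core factors between control groups, with SE bars and stars where adjusted p was below 0.05. Circles are E11.5 over E9.0 whole hearts. Squares are right ventricle and outflow tract over whole heart at E11.5, with controls named by titles (filled) or by column names (open). Tbx5 and Hand1 are lower in all 3 sets, at -1.19 and -1.29 for stage.

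Between right ventricle with outflow tract and whole heart at E11.5, Tbx5 and Hand1 were lower under both readings of the labels, and Mef2c was higher under both. By the titles 4 of 10 factors were called, against 29.4% of all genes, and by the column names 4 of 10, against 21.4%. With 10 factors, neither count was far from its share of all genes. Tbx5 stood at 12.1 to 23.9 CPM in the labelled controls of right ventricle and outflow tract, 25.8 to 28.1 CPM in the labelled mutants and 60.0 to 66.1 CPM in the Tnnt2::Cre controls. Its log2 difference was -1.71 by the titles (SE 0.20, adjusted p = 3.51e-06) and -1.25 by the column names (SE 0.20, adjusted p = 0.000154). Whole heart includes the atria and left ventricle, where Tbx5 is known to be expressed, and their part in this difference was not tested.

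Hand1 stood at 16.5 to 24.8 CPM in the labelled controls and 35.1 to 45.9 CPM in whole heart (-1.02, SE 0.19, adjusted p = 0.000447, by the titles, and -0.73, SE 0.19, adjusted p = 0.00829, by the column names). Mef2c stood at 61.9 to 71.1 CPM against 49.7 to 53.4 CPM (0.35, SE 0.09, adjusted p = 0.00522, and 0.27, SE 0.09, adjusted p = 0.0315). The calls for Gata5 and Tbx20 depended on the reading. Gata5 was lower by the titles (-0.72, SE 0.18, adjusted p = 0.0041) and not called by the column names (-0.34, adjusted p = 0.182), whereas Tbx20 was called higher only by the column names (0.55, adjusted p = 0.00615, against 0.25, adjusted p = 0.177). Hand2 differed by 0.01 (SE 0.17) by the titles and 0.25 (SE 0.17) by the column names and passed under neither. Nkx2-5 passed under neither as well (-0.98, SE 0.42, adjusted p = 0.0885, and -0.93, SE 0.42, adjusted p = 0.129). It stood at 6.03 to 7.16 CPM in the labelled controls, 6.18 to 7.69 in the labelled mutants and 11.2 to 16.5 in whole heart. Neither labelled group overlapped whole heart, but the share of all genes without such overlap was not counted. The fit of all 6 groups that gave the SE of Nkx2-5 includes Mesp1Cre control 2 at 77.1 CPM. Tissue and Cre line cannot be told apart here. Erythroid level was lower in right ventricle and outflow tract (7399 to 32505 CPM in the labelled controls), and its part was not tested.

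Within families, the balance between paralogs, as a share of summed FPKM per library, differed from one control group to another. Hand1 made up 71.1 to 83.6% of HAND expression in the E9.0 controls, 59.6 to 63.9% in E11.5 whole-heart controls and 39.8 to 45.7% in the labelled controls of right ventricle and outflow tract (40.2 to 47.5% in the labelled mutants, the controls by the column names). The ranges of the 3 control groups did not overlap under either reading, and Hand2 made up the remainder. Mef2c made up 56.8 to 61.1% of Mef2c and Mef2a together at E9.0, 36.8 to 39.4% in E11.5 whole-heart controls, 41.5 to 47.1% in the labelled controls and 40.4 to 44.4% in the labelled mutants. Gata5 was 27.6 to 31.3% of the 3 GATA factors at E9.0, 17.5 to 21.8% in E11.5 whole hearts and 8.35 to 12.7% in the labelled controls (14.4 to 14.9% in the labelled mutants), while Gata4 stayed between 39.9 and 49.0% in these 3 groups. Tbx5 was 24.5 to 30.1% of Tbx5 and Tbx20 together in Mesp1Cre controls and 35.2 to 45.5% in the mutants. In Tnnt2::Cre the Tbx5 share was 17.5 to 23.5% in controls and 23.9 to 26.5% in mutants, also without overlap. It was 3.69 to 8.3% in the labelled controls and 6.43 to 7.36% in the labelled mutants. These shares were not tested.

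Other cardiac transcription factors and cofactors, from a list of 41 symbols of which 39 matched the table once and 35 were tested, also moved in few cases. In Mesp1Cre 3 of 35 were called higher, against 6.17% of all genes, and 0 lower, against 5.29%, while 20 of the 35 had a positive log2 fold change. The 3 were Foxp1 (log2 fold change 0.54, SE 0.09, adjusted p = 0.00252), Meis1 (0.44, SE 0.09, adjusted p = 0.00889) and Meis2 (0.39, SE 0.09, adjusted p = 0.0152). Foxp1, a forkhead repressor needed for myocardial growth, stood at 137 to 152 CPM in mutants and 83.5 to 111 CPM in controls. Meis1 and Meis2, homeodomain cofactors, did not pass with sex as a covariate (0.39, adjusted p = 0.0842, and 0.38, adjusted p = 0.0941), Meis2 not without control 1 (0.38, adjusted p = 0.0518), and Foxp1 not with the erythroid level as a covariate (0.44, adjusted p = 0.0525). The median over the list was 0.046, against 0.08 for the core factors and -0.002 for all genes. In Mef2cAHF::Cre 1 of 35 was called higher in the labelled mutants, against 1.81% of all genes, and 0 lower, against 1.04%. It was Hdac9, a class IIa deacetylase that binds MEF2 (0.44, SE 0.09, adjusted p = 0.0389), which would be lower by the column names. The Hdac9 call did not hold without any 1 of the labelled mutants or without labelled control 1 or 3. In Tnnt2::Cre none of 35 passed edgeR's test, against 0.293% of all genes, with 6 at an unadjusted p below 0.05, against 11.9%.

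Genes that the core factors are known to regulate moved in both directions in the Mesp1Cre mutants, with 3 of 31 tested called higher, against 6.17% of all genes, and 6 lower, against 5.29%. Lower were Tnni3, the adult form of cardiac troponin I (-0.78, SE 0.13, adjusted p = 0.00215), Pln, the phospholamban that restrains the calcium pump SERCA (-0.92, SE 0.20, adjusted p = 0.0118), Smyd1, a muscle methyltransferase (-0.37, SE 0.07, adjusted p = 0.00566), and Tnnc1, cardiac troponin C (-0.36, SE 0.07, adjusted p = 0.00898), besides Bmp10 and Myl4. Higher were Ryr2, the calcium release channel of the sarcoplasmic reticulum (0.58, SE 0.12, adjusted p = 0.00714), and Ttn, titin (0.57, SE 0.12, adjusted p = 0.00782), besides Cacna1c. With the erythroid level as a covariate Tnni3, Smyd1 and Ryr2 still passed, while Pln (-0.86, adjusted p = 0.127), Ttn (0.41, adjusted p = 0.129) and Tnnc1 (-0.31, adjusted p = 0.106) did not. Pln also missed with sex as a covariate (-0.96, adjusted p = 0.0505). The median over the list was -0.035. All 14 cardiomyocyte genes given above are also on this list. Their calls, 2 higher (Ryr2 and Ttn) and 3 lower (Tnni3, Tnnc1 and Myl4), are counted again here.

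In the Mef2cAHF::Cre libraries 4 of 32 of these genes were called higher in the labelled mutants, against 1.81% of all genes, and 2 lower, against 1.04%, and all 6 would change direction by the column names. Tnni3 stood at 112 to 129 CPM in the labelled mutants and 51.3 to 59.6 CPM in the labelled controls (1.09, SE 0.09, adjusted p = 0.000697). Hcn4, the pacemaker channel (0.98), Gja5, connexin 40 (0.92), and Pln (0.59) were higher too, and Mb, myoglobin (-1.25), and Nppb, a natriuretic peptide (-0.83), were lower. The calls for Gja5, Pln, Mb and Nppb did not hold without labelled mutant 1, 2 or 3, and that for Hcn4 not without labelled mutant 1. Pln also missed without labelled control 3, Mb without labelled control 1 and Nppb without labelled control 1 or 2. All 14 cardiomyocyte marker genes are also among these target genes, so that list is no separate measure, and its 1 call is Tnni3. Of the marker lists, 12 of 14 cardiomyocyte genes had a positive log2 fold change in the labelled mutants (median 0.254, 1 called higher). The same held for 13 of 14 erythroid genes (median 1.051, 2 called higher) and 1 of 8 epicardial genes (median -0.269, 1 called lower). Their part in these differences was not tested.

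In the Tnnt2::Cre mutants 1 of 32 was called higher, against 0.0763% of all genes, and 1 lower, against 0.217%. Nppb stood at 154 to 330 CPM in mutants and 61.5 to 83.7 CPM in controls (1.72, SE 0.25, adjusted p = 0.0323), and Ckm, muscle creatine kinase, at 0.0529 to 0.151 against 0.777 to 1.05 CPM (-3.22, SE 0.45, adjusted p = 0.0274). Neither call held without Tnnt2::Cre mutant 3 or any 1 of the controls, and that for Ckm not without mutant 2 either. The medians of this list were 0.207 for Mef2cAHF::Cre and 0.201 for Tnnt2::Cre, beside 0.147 and -0.071 for the core factors and -0.007 and 0.004 for all genes.

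Across the 20 libraries, the gene whose log2 CPM was most like that of Tbx5 among 12301 genes was Wnt2 (Pearson r 0.981), followed by Adora1 (0.968) and Fbxo32 (0.961). For Mef2c it was Mllt4 (0.98), for Gata5 Arid3b (0.977), for Hand1 Fam49a (0.973) and for Gata4 Dusp9 (0.948). The likeness was weaker for Nkx2-5 (Golph3, 0.9), Gata6 (Tgif1, 0.895), Mef2a (Pkp2, 0.889), Tbx20 (Zfp748, 0.886) and Hand2 (Ywhab, 0.816). Among the factors themselves the closest pairs were Gata5 with Hand1 (0.949), Gata4 with Mef2c (0.915) and Tbx5 with Hand1 (0.902). The 20 libraries share differences of stage, tissue, Cre line and blood content between groups, which enter these values. After subtraction of each group's mean, Tbx5 and Hand1 stood at -0.51, and the closest pairs were Gata4 with Hand2 (0.75), Gata5 with Tbx20 (0.735) and Gata4 with Tbx20 (0.73).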

How the data were processed

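The authors aligned the reads to mm9 with TopHat2 2.0.8b, as the submitters' processing notes list it, and assigned them to genes with featureCounts. Strand use is not given in the sources used here, and the library kit and sequencer differ between the labels and the study's methods. The deposited table gives each gene's raw count in every library, not normalized. FPKM, deposited beside the counts, was computed by the authors with USeq from counts, gene length and library total. The 20 deposited columns of variance-corrected log2 values were not used. Nothing says that libraries of a group came from separate litters, so p-values measure the spread between these libraries. Library totals ran from 21727258 to 45341870 counts, and precision rests on the replicates. Coordinates are those of the table, with starts counted from 1, and promoter windows were read from the same build (NCBIM37, GENCODE starts).

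Each Cre line was fitted by itself with edgeR 4.0.16 (R 4.3.3) on raw counts: filterByExpr, TMM, glmQLFit, glmQLFTest and Benjamini-Hochberg adjustment over all genes tested, at 0.05. Contrasts of controls and differences between lines came from 1 fit of all 6 groups. Groups followed titles and genotypes, and the column names were the other reading for Mef2cAHF::Cre. Alternatives were DESeq2 1.42.0, DESeq2's size factors, other filters on low counts (at least 10 counts in every library, or at least 1 in all), limma 3.58.1 on log2(FPKM + 0.1) or log2(FPKM + 1), covariates for sex and erythroid level, blocks, and leaving out each library. The male-only fit and the left-out libraries under the column names were added after seeing the data. All 10 factors were named, and from the lists of other factors and target genes the 6 called with the smallest adjusted p in each line. Bmp10, Myl4 and Cacna1c, beyond that rule, were named after their values were seen. The factors and lists were chosen with earlier results of these data known. The edgeR steps were tested on simulated data.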

Additional observations from a re-analysis of the deposited data

Results flagged for a closer look

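The Nkx2-5 level of Mesp1Cre control 2 (77.1 CPM) lay far from the other 3 controls (14.8 to 22.2 CPM). The gap to the nearest control was 0.881 of the range of the group, above the limit that Dixon's test sets for 4 samples. Of 20 such groups of 4, this was the 1 that passed, and chance alone passes about 1 in 20.

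The change of Hand2 differed between Mesp1Cre and Mef2cAHF::Cre by -0.71 on the log2 scale with genotypes by the titles (SE 0.22, adjusted p = 0.044 by edgeR), as tested by an interaction term. The change of Tbx5 differed between the same lines by 1.19 with genotypes by the column names (SE 0.26, adjusted p = 0.0298). Each held under 1 reading of the labels and not under the other, where the values were -0.23 for Hand2 (adjusted p = 0.667) and 0.25 for Tbx5 (adjusted p = 0.585).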

How the results depend on the processing

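The Mesp1Cre count of 1 core factor became 2 with DESeq2 or 1 fit of all 6 groups, which added Hand2 (-0.45, adjusted p = 0.0407, and -0.47, adjusted p = 0.0295), and 0 with the erythroid level as a covariate. It ranged from 1 to 2 when single libraries were left out, with Hand2 added without mutant 2 (-0.55, adjusted p = 0.0391). The counts for Mef2cAHF::Cre and Tnnt2::Cre stayed at 0, that for stage ranged from 6 to 7, that for tissue was 4 in every case, and that for the difference between Mesp1Cre and Mef2cAHF::Cre ranged from 0 to 2, with Hand2 and Tbx20 called without Mesp1Cre control 4, and by the column names from 0 to 1. For tissue, some other settings called 5 or 6 factors. Gata6, at an adjusted p of 0.0513 in the main edgeR fit, was called in 4 of 7 alternatives and Nkx2-5 in 2 of 7. These included Gata6 with DESeq2 (0.29, adjusted p = 0.0229), and Gata6 and Nkx2-5 with the 2 groups alone (0.27 and -0.98). The Nkx2-5 stage call was lost in that fit (-1.32, adjusted p = 0.0612).

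By the column names the Mef2cAHF::Cre values became -0.05 for Nkx2-5, 0.04 for Gata4, -0.38 for Gata5, 0.09 for Gata6, -0.47 for Tbx5, -0.30 for Tbx20, 0.08 for Mef2c, -0.03 for Mef2a, -0.29 for Hand1, -0.24 for Hand2, -0.44 for Hdac9, -1.09 for Tnni3, -0.98 for Hcn4, -0.92 for Gja5, -0.59 for Pln, 1.25 for Mb, 0.83 for Nppb and -0.32 for Mll2. The difference from Mesp1Cre became 0.60 for Gata5 and 0.13 for Tbx20 (0.38 to 0.75 and 0.01 to 0.26 with single libraries left out), and the difference from Tnnt2::Cre -0.16 for Gata5, -0.65 for Tbx5 and -0.13 for Tbx20. Other signs changed only in values that no fit called. With sex as a covariate these were Nkx2-5 (0.14) and Tbx20 (0.04) in Mesp1Cre, which gave the same values among male libraries alone, and Nkx2-5 in Mef2cAHF::Cre (-0.02) and Tnnt2::Cre (0.01). With the erythroid covariate they were Hand1 in Mesp1Cre (0.02), Nkx2-5 in Mef2cAHF::Cre (-0.05), and Mef2a (-0.04) and Hand1 (0.11) in Tnnt2::Cre. With single libraries left out the values ranged from -0.89 to 0.24 for Nkx2-5, -0.06 to 0.12 for Gata4 and -0.15 to 0.08 for Hand1 in Mesp1Cre, and from -0.02 to 0.14 for Nkx2-5 and -0.13 to 0.06 for Gata4 in Mef2cAHF::Cre. In Tnnt2::Cre they ranged from -0.15 to 0.14 for Nkx2-5, -0.02 to 0.10 for Gata4, -0.03 to 0.06 for Mef2a and -0.26 to 0.05 for Hand1. For tissue Hand2 ranged from -0.09 to 0.15, and for the difference between Mesp1Cre and Mef2cAHF::Cre Gata5 ranged from -0.26 to 0.05. The cause of these changes was not tested.

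Replicate numbers are shared between groups, but same-numbered libraries deviated together with r from -0.036 to 0.177, so the numbers were not taken as pairs. With the replicate block the calls among the core factors were the same, with Tbx5 in Mesp1Cre at 0.75 (adjusted p = 0.000803), and all genes called went from 1821 to 1316, from 482 to 512 and from 50 to 26 in the 3 lines. Nppb in Tnnt2::Cre was lost (1.66, adjusted p = 0.0814), as were Ckm (-3.26, adjusted p = 0.0941) and Hdac9 in Mef2cAHF::Cre (0.43, adjusted p = 0.0654). With 3 libraries a group, the 95% intervals of the core factors were narrowest for Mef2a in Mef2cAHF::Cre (-0.11 to 0.18 on the log2 scale, by the titles). By the titles they reached lowest for Gata5 in Tnnt2::Cre (-0.57) and highest for Tbx5 in Mef2cAHF::Cre (0.95). By the column names the Mef2cAHF::Cre intervals change sign. That of Tbx5 there would then reach lowest, and that of Mef2c in Tnnt2::Cre highest (0.44).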
